A study of Mus musculus with 6 samples.

Results

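The 10 genes described here make, convert or consume nicotinamide adenine dinucleotide (NAD), and they were chosen by gene symbol: Nampt, Nmrk1, Nmnat1, Nmnat2, Nmnat3, Naprt, Nadsyn1, Nadk, Nnmt and Parp1. They are 10 of 54115 genes with a transcript in the files, and all 10 were among the 17152 genes with enough reads to be tested. Expression was measured by RNA-sequencing in satellite cells, the resident stem cells of muscle, sequenced directly after isolation, with 3 Pax7WT and 3 Pax7KR libraries. The Pax7KR mice were homozygous for the K193R substitution, an arginine in place of a lysine of the transcription factor PAX7, made with CRISPR-Cas9 in C57BL/6J zygotes, and the Pax7WT mice were littermates from the same crosses of heterozygotes. All mice were C57BL/6J and 6 to 8 weeks old, and the substitution is in the germline, so it is present in every cell of a Pax7KR mouse. Cells of both genotypes were sorted from uninjured hindlimb muscle as α7-INTEGRIN+ and CD34+ and as negative for CD31, CD11b, SCA-1 and CD45, after enzymatic dissociation. Each library was made from 15 ng of total RNA, and whether a sample pooled several mice was not given in the sources used here.

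NAD is an electron carrier of metabolism and also a substrate that some enzymes break down. Sirtuins use it to remove acetyl groups from proteins, and poly(ADP-ribose) polymerases (PARPs) use it to attach ADP-ribose; both release nicotinamide. In most mammalian tissues NAMPT recycles that nicotinamide to nicotinamide mononucleotide (NMN), NMRK1 makes NMN from nicotinamide riboside, and the NMNAT enzymes turn NMN into NAD. A separate route starts from nicotinic acid through NAPRT and ends with NADSYN1, NADK phosphorylates NAD to NADP, and NNMT methylates nicotinamide and so takes it out of the cycle.

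The libraries held 17822367 to 27908054 estimated reads. The satellite cell gene Pax7 was at 511 to 590 TPM (transcript units scaled to a fixed total, a level corrected for length) and Myf5 at 388 to 463 TPM in the 6 libraries, and the leukocyte gene Ptprc was at 0.03 to 0.56 TPM. Pecam1, which encodes the CD31 that the sort selected against, remained at 10.3 to 26.5 TPM, and Ly6a (SCA-1) at 12.1 to 22.4 TPM. Summed markers of endothelial, fibro-adipogenic, immune, glial, tendon, smooth muscle, erythroid and myofibre cells overlapped between the genotypes. Single genes held a large part of some sums, so those sums say little about the other markers. They were Tek (65.4 to 87.4 TPM) for endothelial, Acta2 (130 to 161 TPM) for smooth muscle and Dpt (568 to 673 TPM) for fibro-adipogenic cells. A sum of 4 Y-linked genes (Ddx3y, Eif2s3y, Kdm5d and Uty, taken as a check of the libraries) stood at 83.2 TPM in Pax7KR replicate 2 and at 188 to 216 TPM in the other libraries, so values without that library are given where a result rests on it. In 9 genes that respond to cell isolation, such as Fos and Atf3, Pax7WT replicate 2 stood apart, with a sum of 12719 TPM beside 19049 to 23865 TPM in the other libraries. In bulk samples, fewer cells of a type and less RNA per cell cannot be told apart.

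Sequences are shown for a short RNA of Nmnat2, described again below, and for the bases before starts of Nmnat2, Nampt and Nadk. No stretch of Nmnat1, Naprt or Nmrk1 is printed. Nmnat2-206 is an annotated RNA of 539 bases without a coding region, inside Nmnat2 on the plus strand of chromosome 1 (GRCm38), and it held 16 reads or fewer in each library. Its first 300 bases are printed from the GENCODE vM21 transcript, with the 77 bases it shares with the full-length Nmnat2-201 in capitals.
Nmnat2-206: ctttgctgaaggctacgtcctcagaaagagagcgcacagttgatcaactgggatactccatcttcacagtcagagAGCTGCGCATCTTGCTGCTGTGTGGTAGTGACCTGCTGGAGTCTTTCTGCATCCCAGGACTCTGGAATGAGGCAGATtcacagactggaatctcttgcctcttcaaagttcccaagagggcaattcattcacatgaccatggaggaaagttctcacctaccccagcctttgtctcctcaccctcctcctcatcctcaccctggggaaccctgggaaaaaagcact
The capitals, bases 76 to 152, are the exon at chr1:153094037-153094113. The other 462 bases of the RNA, in exons at chr1:153093480-153093554 and chr1:153094211-153094597, lie in introns of Nmnat2-201. Reads counted there can therefore come from this RNA or from unspliced Nmnat2.

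The bases before starts of Nmnat2, Nampt and Nadk are from RefSeq's promoter windows (GRCm38.p6, plus strand), cut at the first base that an annotated exon covers inside the window, which is the start of Nampt-201 for Nampt. The Nampt stretch lies within the annotated gene, because Nampt-203, listed at 0 reads in each library, begins further upstream at position 32819545 of chromosome 12. In them, TAAT or ATTA (the core of homeodomain sites), CACGTG (an E-box, bound among others by clock factors) and GTCACGC (a core of paired domain sites) were set in capitals; GTCACGC and TAAT were searched on both strands, CACGTG is its own reverse complement, and in the printed bases no matches overlapped.
Nmnat2, chr1:152954851-152954992: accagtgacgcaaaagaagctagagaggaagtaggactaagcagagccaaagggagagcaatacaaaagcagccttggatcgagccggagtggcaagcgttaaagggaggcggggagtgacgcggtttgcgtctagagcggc
Nampt, chr12:32820085-32820334: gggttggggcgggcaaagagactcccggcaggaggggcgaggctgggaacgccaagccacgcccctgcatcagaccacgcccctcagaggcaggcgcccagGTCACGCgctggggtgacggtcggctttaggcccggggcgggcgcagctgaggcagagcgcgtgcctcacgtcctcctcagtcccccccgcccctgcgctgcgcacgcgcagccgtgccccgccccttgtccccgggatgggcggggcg
Nadk, upstream start, chr4:155562131-155562377: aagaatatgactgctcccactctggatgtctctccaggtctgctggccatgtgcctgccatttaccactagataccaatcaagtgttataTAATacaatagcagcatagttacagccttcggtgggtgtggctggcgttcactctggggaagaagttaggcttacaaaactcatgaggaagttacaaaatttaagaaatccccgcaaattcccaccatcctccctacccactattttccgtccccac
Nadk, downstream start, chr4:155563565-155563699: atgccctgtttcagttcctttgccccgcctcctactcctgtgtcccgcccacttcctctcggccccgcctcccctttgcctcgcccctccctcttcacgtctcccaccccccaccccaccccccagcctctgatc
The Nampt stretch was 75.6% G and C and held GTCACGC once, beginning at position -149 from the start. Over whole windows of 300 bases, GTCACGC was in 1 of 10 windows of 8 members and in 2.09% of all 32851 windows. CACGTG was in 2 member windows (Parp1 and the downstream Nadk start, there past the printed bases) and in 7.15% of all, TAAT or ATTA in 3 and in 58.0%, and the palindrome TAATTA in 0 and in 5.29%. The median over all windows was 52.7% G and C. Most member windows lay above it, from 46.7% at the upstream Nadk start to 76.3% at Nampt. The motif counts were not corrected for composition, so no lack of homeodomain sites is read from them. The 2 Nadk starts differed in composition, with 46.6% G and C in the upstream stretch and 67.4% in the downstream one. No window was found for Naprt and Nnmt.

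In levels per length, Nadk was the most abundant member and Nnmt the least. Mean TPM over the 6 libraries was 66.9 for Nadk, 28.2 for Parp1, 19.3 for Nampt, 12.6 for Naprt, 11.7 for Nmrk1, 11.4 for Nmnat3, 8.91 for Nadsyn1, 5.98 for Nmnat1, 3.50 for Nmnat2 and 2.37 for Nnmt, beside a median of 11.9 TPM over all tested genes. The first 3 stood apart in every library, since the ranges of Nadk (57.2 to 72.3), Parp1 (23.3 to 32.7) and Nampt (17.7 to 21.2) did not overlap. The ranges of Naprt, Nmrk1 and Nmnat3 overlapped from each to the next, and the order changed between libraries. The ranges of Nadsyn1, Nmnat1, Nmnat2 and Nnmt overlapped in the same way, but Nadsyn1 was above Nmnat1 and Nmnat1 above Nmnat2 in 6 of 6 libraries, and Nmnat2 was above Nnmt in 5. Counting coding transcripts alone moved Nadsyn1 from 7th to 9th place, because only 11.8% to 33.5% of its TPM came from them. That place was close, with mean coding TPM of 1.99 for Nmnat2 and 1.92 for Nadsyn1, and Nmnat2 the higher in 3 of 6 libraries. Other members moved too. Nmnat3 rose from 6th to 4th place, above Naprt in 5 of 6 libraries, and Nmrk1 stood at 6.88 coding TPM. On average the largest share of Nadsyn1, 40.4% of its TPM (22.5% to 55.0%), went to Nadsyn1-207, an RNA annotated as a target of nonsense-mediated decay, while Nadsyn1-206, with a retained intron, took more in Pax7WT replicate 1 (34.4% against 34.3%) and in Pax7KR replicate 1 (30.8% against 22.5%).

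**Figure D1:**
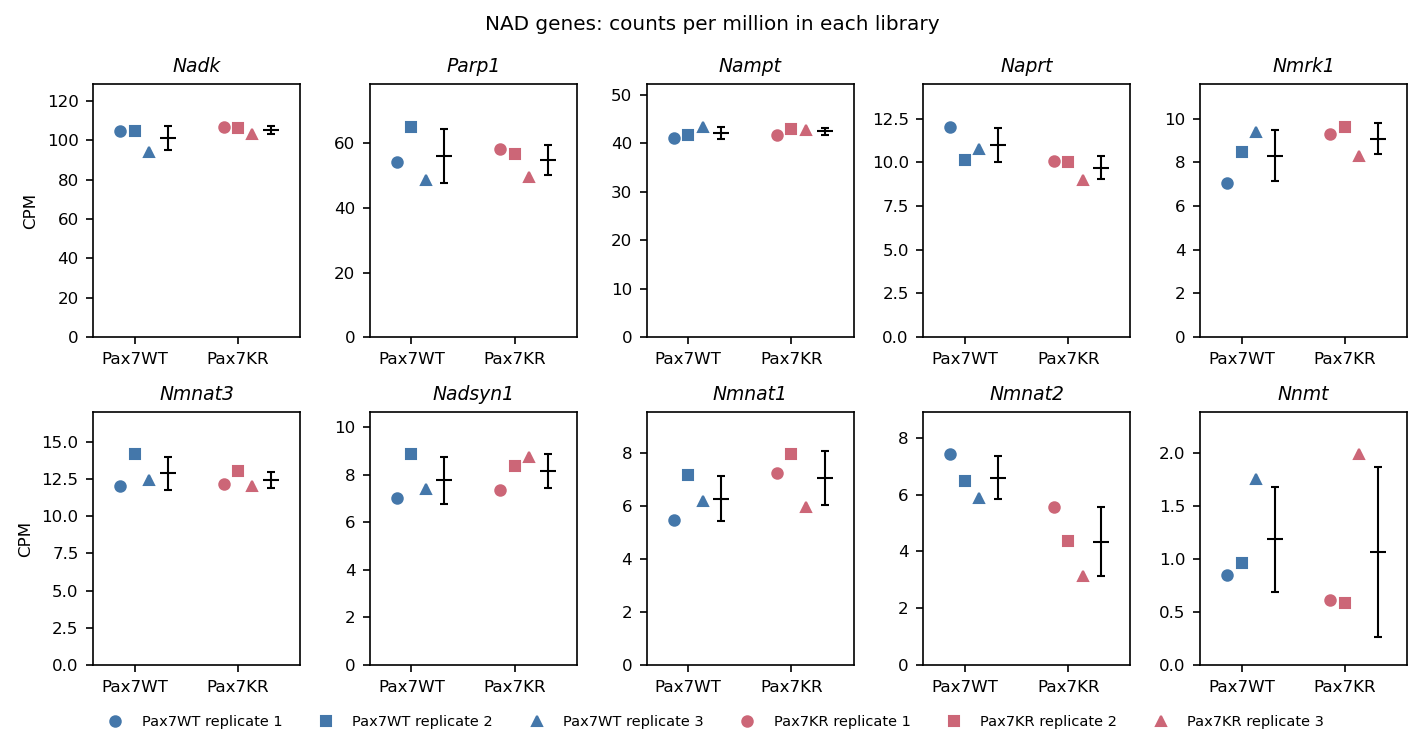
Counts scaled to library size (CPM) of the 10 NAD genes in each library, in the order of their mean TPM, with Pax7WT in blue and Pax7KR in red, and the mean with its SD (n = 3) in black beside each group. Each axis starts at 0 and has its own scale. The 6 Nampt values lie between 41.2 and 43.4 CPM, and the 3 Pax7KR values of Nmnat2 lie below the 3 Pax7WT values.

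The first comparison asked whether the genes for NAD supply and use differ in expression between Pax7KR and Pax7WT satellite cells. With edgeR's quasi-likelihood test and a Benjamini-Hochberg adjusted p under 0.1, 0 of the 10 members were called, and 0 of the 17152 genes tested (percent called 0, smallest adjusted p 0.302). At an unadjusted p under 0.05 there was 1 member, Nmnat2, where 803 genes or 4.68% of all tested genes had such a p. DESeq2, without and with transcript length as an offset, called 30 and 45 genes. With the offset that is 0.262% of the tested genes, and Nmnat2 was among them, as described below. Of the 10 log2 fold changes, 5 were above and 5 below 0, with a median of -0.0080 beside -0.0037 over all genes. CPM of all 3 Pax7KR libraries lay below all 3 Pax7WT libraries for 2 members, Nmnat2 and Naprt, where 5.19% of tested genes did so, and above them for 0 members, where 5.14% of tested genes did so.

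Nampt, whose product catalyses the rate-limiting step of NAD salvage from nicotinamide, had the narrowest spread of the 10. Its CPM (reads scaled to library size) was 41.2, 41.7 and 43.4 in Pax7WT replicates 1 to 3 and 41.7, 43.0 and 42.8 in Pax7KR replicates 1 to 3. The groups overlapped, and the highest library was 1.05 times the lowest, a ratio that 0.849% of the 10839 genes with at least 5 CPM undercut, against a median ratio of 1.24. The log2 fold change of Pax7KR over Pax7WT was 0.01 (SE 0.07, edgeR adjusted p = 0.998), with a 95% confidence interval from -9.31% to 12.4% of change. On the TPM scale Nampt was at 19.8 ± 1.73 in Pax7WT and 18.7 ± 0.866 in Pax7KR (SD, n = 3). The TPM figure includes Nampt-202, an RNA of 411 bases annotated without a coding region, which held 10, 15 and 14 reads in Pax7WT and 3, 6 and 9 in Pax7KR and so took 13.7% to 26.1% and 4.84% to 15.0% of the gene's TPM. The coding Nampt-201 alone was at 15.4, 15.6 and 16.1 TPM in Pax7WT and 16.9, 17.5 and 16.4 TPM in Pax7KR, a narrow gap from 16.1 to 16.4 at its closest. How many transcripts of all genes separate in TPM was not counted, so no change of this RNA is read from it. The gene's summed TPM overlapped between the genotypes. With transcript length as an offset in edgeR the log2 fold change of the gene was -0.14, with an adjusted p of 0.981, and over all 22 alternatives its adjusted p ranged from 0.981 to 1.000. The 3 genes whose log2(CPM + 1) followed Nampt most closely over the 6 libraries were Pgm2l1 (Pearson r = 0.987), Dld (0.984) and Dock4 (0.982), the highest of 10629 genes. These correlations are over 6 libraries in which Nampt itself varied by 0.08 on the log2 scale, and all genes of a library share its depth and preparation. The genes were picked for their r out of 10629. Whether such values exceed what chance gives was not tested, so no link to Nampt is read from them.

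Nmrk1, the kinase for nicotinamide riboside, was less even. Its CPM was 7.06, 8.47 and 9.41 in Pax7WT and 9.32, 9.63 and 8.27 in Pax7KR, with overlapping groups. The log2 fold change was 0.13 (SE 0.16, edgeR adjusted p = 0.998), and the interval reached from -13.9% to 39.2%. Only 43.9% to 73.1% of its TPM came from coding transcripts, and with those alone the log2 fold change was -0.02. Its 2 main coding RNAs, Nmrk1-201 and Nmrk1-206, carry the same coding region of 585 bases, and their shares varied within a genotype: Nmrk1-201 had 51.3%, 21.7% and 20.9% of the TPM in Pax7WT and 41.4%, 28.2% and 30.1% in Pax7KR.

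The 3 NMNAT genes, whose products carry out the step common to all routes, differ in where they act: NMNAT1 in the nucleus, NMNAT2 at the Golgi and in the cytosol, and NMNAT3 in mitochondria. Nmnat3 was the most abundant of them, with 50.1% to 53.3% of their summed TPM in Pax7WT and 53.4% to 63.1% in Pax7KR. Its own level did not differ, at a mean of 11.4 TPM in each genotype with overlapping groups, so no gain is read from its share. The part of Nmnat2 in the sum was 20.1% to 23.0% in Pax7WT and 7.91% to 16.1% in Pax7KR. The TPM of Nmnat2 rests in part on few reads of a short RNA without a coding region, as described below. Nmnat3 was at 12.1, 14.2 and 12.4 CPM in Pax7WT and 12.2, 13.0 and 12.1 CPM in Pax7KR. The log2 fold change of Nmnat3 was -0.05 (SE 0.12, edgeR adjusted p = 0.998). Nmnat1 was at 5.48, 7.17 and 6.19 CPM in Pax7WT and 7.26, 7.96 and 5.96 CPM in Pax7KR, with a log2 fold change of 0.17 (SE 0.19, edgeR adjusted p = 0.998). With the length offset it was -0.10, so its direction was not stable, and leaving out libraries from the fit without the offset gave 0.08 to 0.28. Both genes overlapped between the genotypes. The interval for Nmnat1, -14.8% to 49.5%, was wider than that for Nmnat3, -19.4% to 15.9%, at 126 to 190 reads per library against 251 to 328.

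Nmnat2 was the member with the largest difference from its own error. It lies at chr1:152954993-153119261 on the plus strand. Its CPM was 7.42, 6.49 and 5.90 in Pax7WT and 5.55, 4.36 and 3.12 in Pax7KR, from 115 to 202 reads per Pax7WT library and 66 to 127 per Pax7KR library. All 3 Pax7KR libraries were below all 3 Pax7WT libraries, by the narrow gap from 5.90 to 5.55 at its closest. The log2 fold change was -0.60 (SE 0.23, 95% confidence interval -1.10 to -0.11), which is 0.658 times the Pax7WT level. The unadjusted p of edgeR was 0.0207 and the adjusted p 0.992, so the gene did not pass the test. Its ratio of highest to lowest library, 2.38, exceeded that of 98.4% of the genes with at least 5 CPM. The estimate depended on single libraries. It was -0.42 without Pax7KR replicate 3 and -0.51 without Pax7WT replicate 1, where the unadjusted edgeR values were 0.0899 and 0.0810. It was -0.82 without Pax7KR replicate 1 (unadjusted 0.00624) and -0.60 without Pax7KR replicate 2, the library low in Y-linked RNA (unadjusted 0.0447). The adjusted p stayed at 0.798 or above in all of these.

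The size of the Nmnat2 difference also depended on how the short RNA printed above was weighed. Nmnat2-206 held 16, 12 and 8 reads in Pax7WT and 7, 0 and 3 in Pax7KR, while the full-length Nmnat2-201, of 4626 bases, held 186, 103 and 105 reads in Pax7WT and 120, 104 and 63 in Pax7KR. Because TPM divides reads by length, those few reads made up 50.9%, 58.8% and 37.0% of the gene's TPM in Pax7WT and 41.5%, 0% and 36.5% in Pax7KR. The gene's TPM was 4.90, 4.91 and 4.53 in Pax7WT and 3.35, 1.61 and 1.68 in Pax7KR, with a wide gap between the groups. The TPM of Nmnat2-201 alone was 2.40, 2.02 and 1.80 in Pax7WT and 1.96, 1.61 and 1.07 in Pax7KR, with overlap. That overlap rested on Pax7WT replicate 3, where 8 reads (1.06 TPM) went to another coding RNA, Nmnat2-204. All coding transcripts together were at 2.40, 2.02 and 2.86 TPM in Pax7WT and 1.96, 1.61 and 1.07 TPM in Pax7KR. Those groups did not overlap, by a narrow gap from 2.02 to 1.96 at its closest. How many genes separate in coding TPM was not counted. With transcript length as an offset the log2 fold change was -1.19, at an adjusted p of 0.0605 in DESeq2 and of 0.764 in edgeR. With coding transcripts only it was -0.53 in edgeR (adjusted p = 0.977) and -0.71 in DESeq2 with the offset (adjusted p = 0.818). Over all 22 alternatives the log2 fold change stayed below 0, from -1.60 to -0.42, and the adjusted p ran from 2.19e-05 to 1.000. The DESeq2 call with the offset was lost when any library other than Pax7KR replicate 1 was left out (adjusted p from 0.193 to 0.656), where the log2 fold change was still -1.22 to -0.99, and the adjusted p was 2.19e-05 without Pax7KR replicate 1. Among markers of other cells, given as the sum in Pax7WT and then in Pax7KR, the fitted change was below 0 for 4 of 5 glial genes (69.3 to 99.9 and 54.8 to 97.9 TPM), for 7 of 7 smooth muscle and pericyte genes (180 to 229 and 186 to 217 TPM) and for 7 of 9 myofibre genes (70.8 to 91.0 and 65.0 to 91.1 TPM). It was above 0 for 5 of 5 erythroid genes (719 to 1386 and 1264 to 2054 TPM) and for 7 of 8 endothelial genes (106 to 144 and 125 to 165 TPM). In the remaining lists it was below 0 for 5 of 8 fibro-adipogenic, 2 of 7 tested immune and 3 of 4 tendon genes. Over all genes it was below 0 for 8753 of 17152. The smallest adjusted p among these markers was 0.992, and their part in the Nmnat2 values was not tested.

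**Figure D2:**
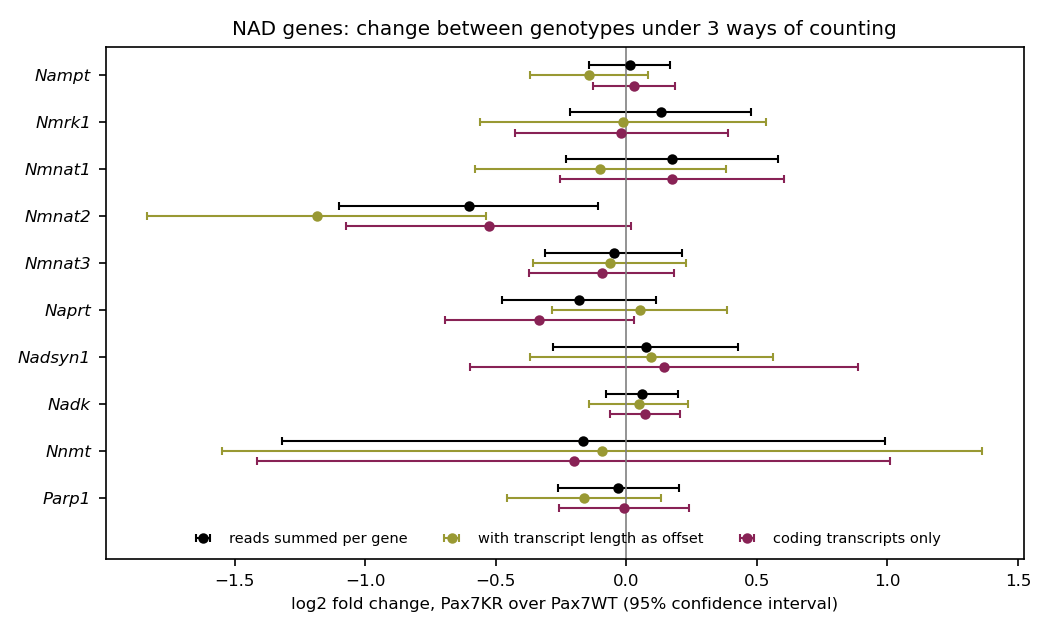
Log2 fold change of Pax7KR over Pax7WT for the 10 NAD genes from edgeR, with 95% confidence intervals, for reads summed per gene (black), the same with transcript length as an offset (olive) and reads of coding transcripts only (purple). The Nmnat2 estimates are -0.60, -1.19 and -0.53, and the interval of the last includes 0. Every interval of the other 9 genes includes 0.

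The nicotinic acid route was carried by both of its enzymes at low to middle levels. Naprt, for the first step, was at 12.1, 10.2 and 10.8 CPM in Pax7WT and 10.1, 10.1 and 8.98 CPM in Pax7KR, with no overlap but a gap between the groups that was smaller than the spread within either. On the log2 scale the change was -0.18 (SE 0.14, edgeR adjusted p = 0.992), with an interval from -28.1% to 8.23%. With the length offset in edgeR it was 0.05, and with coding transcripts only -0.33, so its direction was not stable. The first 277 bases of the gene overlap Eef1d, a far more abundant gene on the same strand (660 TPM), and 10.3% of the 31-base sequences of Naprt occur in transcripts of other genes, mainly Eef1d, so reads there may be shared. Nadsyn1, for the last step, was at 7.02, 8.86 and 7.41 CPM in Pax7WT and 7.35, 8.38 and 8.75 CPM in Pax7KR. The groups overlapped, and the log2 fold change was 0.07 (SE 0.16, edgeR adjusted p = 0.998).

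Nadk, the kinase that forms cytosolic NADP, was the best measured member, with 1855 to 2847 reads per library. Its CPM was 105, 105 and 94.2 in Pax7WT and 107, 106 and 103 in Pax7KR, with overlapping groups. The log2 fold change was 0.06 (SE 0.06, edgeR adjusted p = 0.998), and the interval was -5.25% to 14.6%, the narrowest range among the members. Over 22 alternatives its log2 fold change ran from -0.03 to 0.12, and it was below 0 in 1 of them, DESeq2 with the length offset without Pax7WT replicate 3.

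Nnmt was the least abundant member, with 14 to 42 reads per library, and its values did not follow genotype. Its CPM was 0.845, 0.960 and 1.75 in Pax7WT and 0.612, 0.586 and 1.99 in Pax7KR, so replicate 3 was the highest library of each genotype. In those same libraries, and in no other, 5 and 10 reads were assigned to Nnmt-204, an RNA with a retained intron. The fitted log2 change was -0.16 (SE 0.53, edgeR adjusted p = 0.998) with an interval from -59.9% to 98.5%. It was -0.97 without Pax7KR replicate 3 and 0.23 without Pax7WT replicate 3, so its direction rested on single libraries. The 8 fibro-adipogenic markers summed to 692 TPM in Pax7WT replicate 3 and 647 TPM in Pax7KR replicate 3, between 624 and 752 TPM in the others, but most of each sum was Dpt (568 to 673 TPM). Dcn was at 32.9 and 26.9 TPM in the replicates 3 and at 24.7 to 48.1 TPM elsewhere, and Pdgfra was below 1 TPM in each library. The sum of 5 erythroid markers was highest in replicate 3 of each genotype, as Nnmt was. It was 719, 772 and 1386 TPM in Pax7WT and 1357, 1264 and 2054 TPM in Pax7KR. No other list of cell markers was highest in both replicates 3. The part of other cells in the Nnmt values was not tested.

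Parp1, the main nuclear consumer of NAD after DNA damage, was at 54.4, 65.2 and 48.7 CPM in Pax7WT and 58.3, 56.8 and 49.5 CPM in Pax7KR. The groups overlapped, and Pax7WT held both the highest and the lowest library. Pax7KR over Pax7WT was -0.03 on the log2 scale (SE 0.11, edgeR adjusted p = 0.998), with an interval from -16.6% to 15.1%. It was 0.09 without Pax7WT replicate 2.

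The second comparison asked whether the share of each transcript in its gene's TPM differed between the genotypes. The 10 genes have 58 annotated transcripts in the files, and 22 of them held a mean share of 10% or more. For 5 of these 22 the groups did not overlap, in 2 lower and in 3 higher in Pax7KR, where 9.37% of 26386 such transcripts of all genes did not overlap. Shares within a gene add up to a whole, so transcripts of the same gene are not separate results. The exact permutation test over 3 against 3 libraries cannot give a two-sided p under 0.1, which was its value for each of the 5.

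Nmnat1 held 2 of the 5, which are each other's remainder. Nmnat1-203 took 46.0%, 34.0% and 42.6% of the gene's TPM in Pax7WT and 60.0%, 67.3% and 66.7% in Pax7KR (exact permutation p = 0.1), and the difference of the means, 23.8 percentage points, ranged from 20.4 to 26.4 when each library was left out. Nmnat1-201 took the rest, 54.0%, 66.0% and 57.4% in Pax7WT and 40.0%, 32.7% and 33.3% in Pax7KR. The levels show the same split and are not a separate result, since the gene's sum, 4.76 to 7.26 TPM, overlapped between the genotypes. Nmnat1-203 was at 2.32, 2.47 and 2.51 TPM in Pax7WT and 3.82, 4.41 and 3.18 TPM in Pax7KR, and Nmnat1-201 at 2.72, 4.79 and 3.38 TPM in Pax7WT and 2.54, 2.14 and 1.58 TPM in Pax7KR. The 2 RNAs share their first exons on the minus strand of chromosome 4 and differ at the end. Nmnat1-201 has 5 exons, the last at chr4:149468559-149469211, and a coding region of 855 bases. In Nmnat1-203 the last exon runs through the intron before it and on past that end, at chr4:149467572-149469782, and its coding region is 447 bases. All 1238 bases of Nmnat1-201 lie in exons of Nmnat1-203. Reads in that intron can therefore come from Nmnat1-203 or from unspliced Nmnat1, which was not tested. The reads behind the shares were 99, 69 and 81 for Nmnat1-203 and 50, 58 and 46 for Nmnat1-201 in Pax7WT, and 129, 157 and 104 against 37, 33 and 22 in Pax7KR. Of the 31-base sequences of Nmnat1, 8.39% occur in transcripts of other genes.

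The other shares without overlap belonged to Nmnat2, Naprt and Nmrk1. Nmnat2-201 took 49.1%, 41.2% and 39.7% of its gene's TPM in Pax7WT and 58.5%, 100% and 63.5% in Pax7KR, the reverse of the share of Nmnat2-206 for the most part. The difference of the means was 30.6 percentage points, 17.6 without Pax7KR replicate 2, and 7.17 as a share of reads. Naprt-201, the full coding RNA, took 79.7%, 81.6% and 85.9% in Pax7WT and 63.5%, 70.2% and 52.8% in Pax7KR. Nmrk1-204, an RNA annotated as a target of nonsense-mediated decay, took 9.27%, 9.48% and 13.4% in Pax7WT and 16.9%, 17.7% and 13.6% in Pax7KR, and as a share of reads its groups overlapped. Each exact permutation p was 0.1.

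Nadk showed how unsteady such shares can be within a genotype. Nadk-203, from the downstream start, took 77.1%, 79.2% and 44.1% of the TPM in Pax7WT and 63.2%, 60.2% and 82.3% in Pax7KR. Nadk-201, from the upstream start, took 0%, 0% and 46.5% in Pax7WT and 24.3%, 21.6% and 0% in Pax7KR, so it was listed at 0 in 3 libraries and at 622 to 955 reads in the other 3. The 2 RNAs have the same coding region of 1317 bases and differ in the first exon, of 78 bases in Nadk-201 and 280 bases in Nadk-203, and by 4 bases at the last. Their summed TPM, taken after their values were seen, was 52.2, 54.1 and 51.8 in Pax7WT and 60.9, 59.1 and 54.7 in Pax7KR, far steadier than either alone.

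**Figure D3:**
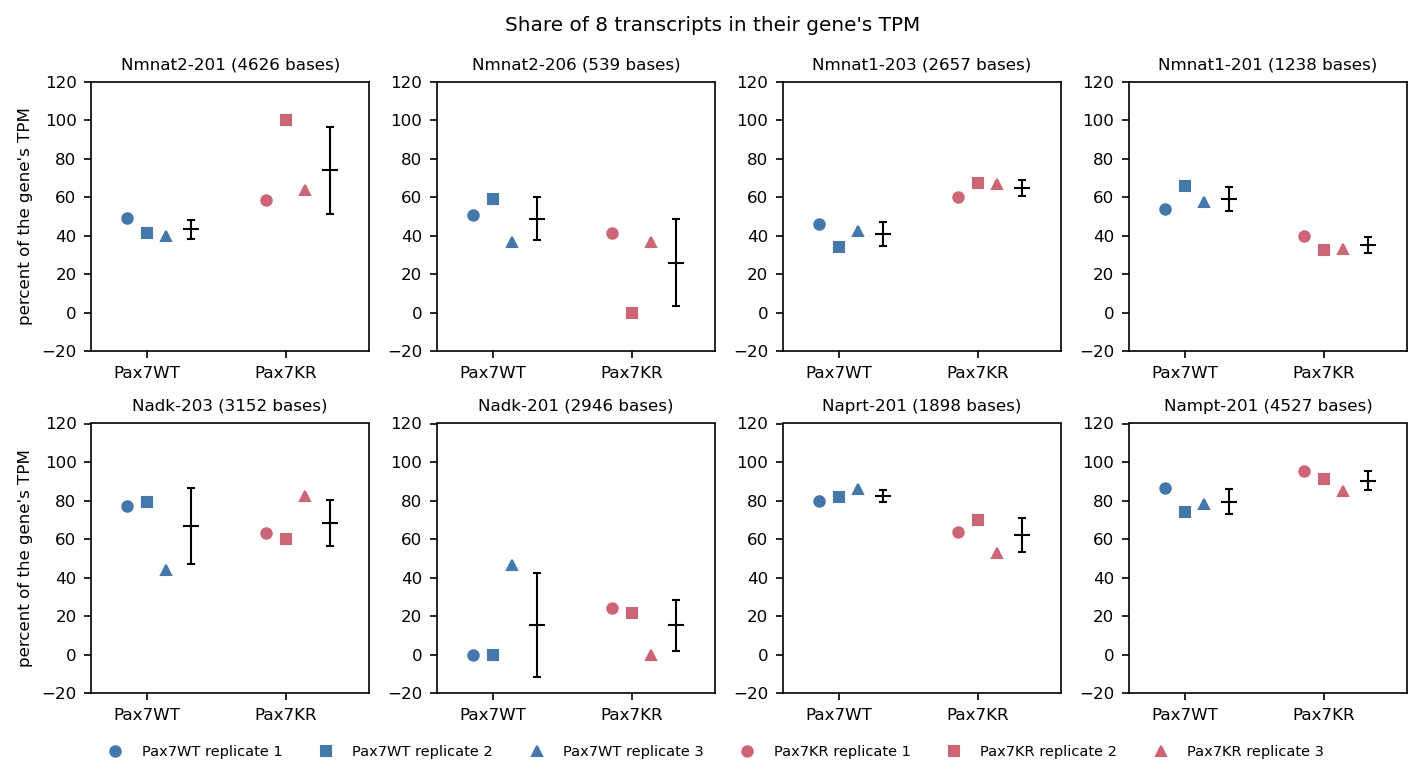
Percent of the gene's TPM taken by 8 transcripts in each library, with Pax7WT in blue, Pax7KR in red and the mean with its SD (n = 3) in black. The Nmnat1-203 and Naprt-201 shares do not overlap between the genotypes, the Nadk-201 share is 0% in 3 libraries, and the Nmnat2-206 share is 0% in Pax7KR replicate 2.

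Around the 10 genes, 56 further gene models of NAD metabolism were listed by role, and 47 of them were tested. With edgeR 0 of the 47 passed an adjusted p of 0.1, 2 had an unadjusted p under 0.05, and 20 were above and 27 below 0, with a median log2 fold change of -0.04. The share of all tested genes with such a p was 4.68%. Groups did not overlap for 2 lower and 5 higher genes of the 47, beside 5.19% and 5.14% of all tested genes.

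Of 7 genes for enzymes that remove or break down ADP-ribose, all tested, 2 had values above 0 and 5 below, and these 2 were the pair with an unadjusted p under 0.05. Parg encodes the main hydrolase of poly(ADP-ribose) chains. It was at 40.5 ± 2.60 CPM in Pax7WT and 46.3 ± 2.45 CPM in Pax7KR (SD, n = 3). Pax7KR was 0.19 higher on the log2 scale (SE 0.08), with an unadjusted edgeR value of 0.0315 and an adjusted p of 0.992. Adprhl2 encodes a hydrolase that removes ADP-ribose from serine. It was at 36.2 ± 1.26 CPM in Pax7WT and 41.8 ± 1.37 CPM in Pax7KR. Pax7KR was 0.21 higher on the log2 scale (SE 0.08), with an unadjusted edgeR value of 0.0165 and an adjusted p of 0.992. Neither gene overlapped between the genotypes in CPM, and neither passed the test after adjustment. In TPM, Adprhl2 again did not overlap, and Parg did, at 23.2 to 27.8 in Pax7WT and 25.0 to 39.2 in Pax7KR. Macrod1 was the most abundant of this list at 71.0 TPM (log2 fold change -0.01), and Adprm was at 36.2 TPM (-0.06).

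Of the PARP family, 15 of 15 further members had enough reads to be tested, 7 above and 8 below 0. Parp3 was the most abundant at 107 TPM (log2 fold change 0.01), followed by Tiparp, which transfers single ADP-ribose units, at 57.8 TPM (-0.25, SE 0.24) and Tnks2, a tankyrase, at 55.9 TPM (0.01). The ranges of Tiparp (39.7 to 66.0 TPM) and Tnks2 (49.5 to 61.1 TPM) overlapped, and their order changed between libraries. Of the Parp3 TPM, 47.7% to 61.5% came from coding transcripts. For Parp6, named after its values were seen, coding transcripts gave 0% to 8.19% of the TPM. Groups did not overlap for 2 lower members, Parp4 and Parp8, and 2 higher members, Parp9 and Parp10, named after their values were seen, beside 5.19% and 5.14% of all tested genes. For Parp9 the nearest libraries of the genotypes were both at 33.0 CPM. All 7 sirtuins were tested, 5 above and 2 below 0. Sirt2, a mainly cytosolic deacetylase, had the highest level, 199 TPM, with a log2 fold change of -0.04 (SE 0.06), Sirt7 was at 38.2 TPM (0.01), and Sirt4 was at 39.5 TPM (0.18, SE 0.11), of which 6.67% to 13.6%, or 2.76 to 5.10 TPM, came from coding transcripts.

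Of 9 genes of the route from tryptophan, 2 had enough reads to be tested: Afmid, for kynurenine formamidase, at 3.62 TPM (log2 fold change -0.30, SE 0.31) and Ido1 at 1.13 TPM (-0.14, SE 0.53). Haao was at 0.17 TPM, and Tdo2, the liver enzyme that opens this route, had 0 reads in every library. Of 7 NAD glycohydrolases and surface ADP-ribosyltransferases, 5 were tested, with Art3 at 29.4 TPM (-0.14), Sarm1, the NAD-cleaving enzyme of axon loss, at 11.6 TPM (0.09) and Cd38, a surface NAD glycohydrolase, at 0.753 TPM (0.62, SE 0.46).

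Of 11 tested gene models for salvage, transport and redox exchange, 3 were above and 8 below 0. Slc25a51, the mitochondrial NAD carrier, was at 48.1 TPM (log2 fold change -0.04), Aox1, an oxidase of methylated nicotinamide, at 40.9 TPM (-0.04) and Pnp, which splits nicotinamide riboside, at 40.8 TPM (-0.07). Nnt, the mitochondrial transhydrogenase, is named after its values were seen, because C57BL/6J mice carry a deletion in it and because it has 2 gene models whose sequences overlap. All 31-base sequences of the shorter model occur in other transcripts (100%), and 47.8% of those of the longer one. The split between the models differed among libraries, with 32 to 322 reads for the longer model, while the sum was 11.9, 11.5 and 14.0 TPM in Pax7WT and 14.4, 11.3 and 11.3 TPM in Pax7KR.

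**Figure D4:**
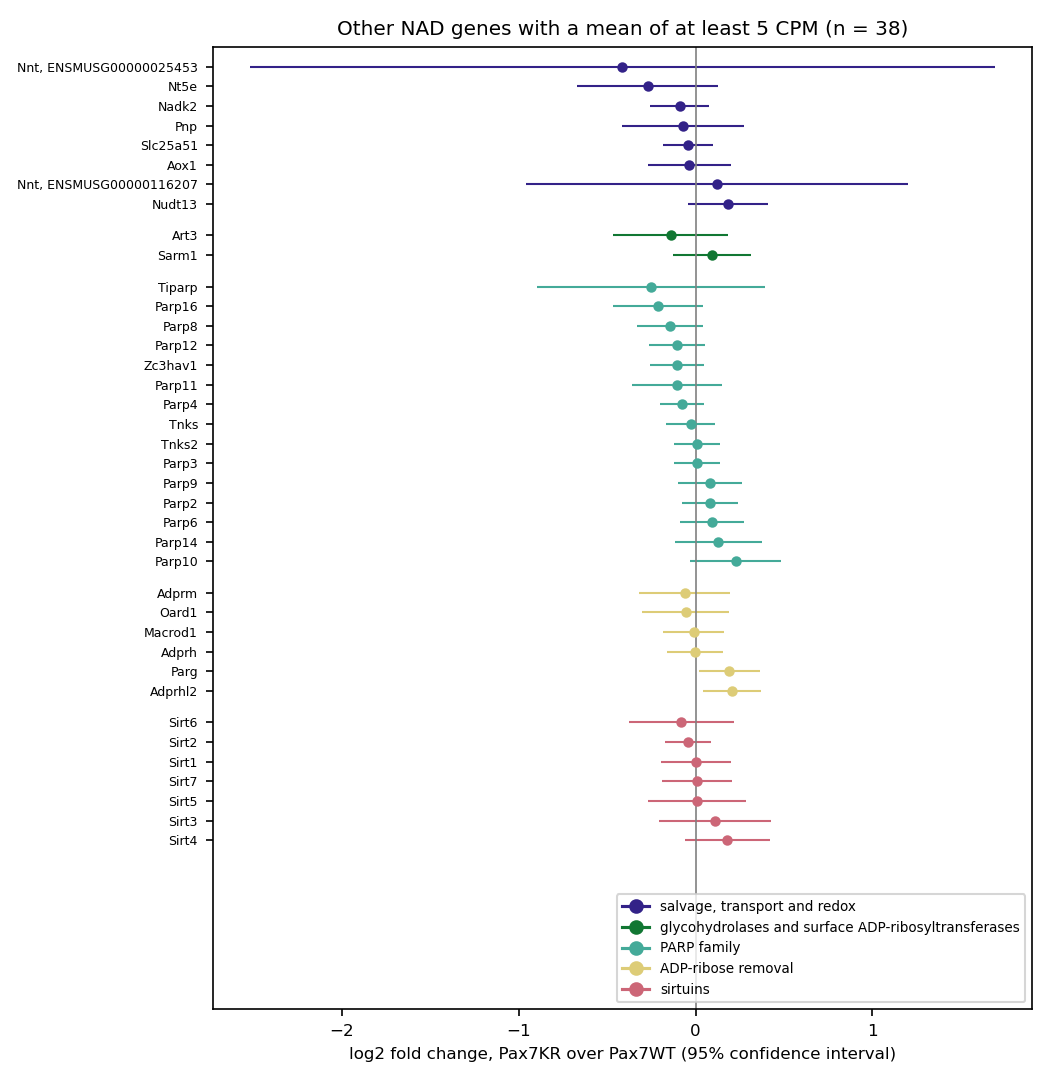
Log2 fold change of Pax7KR over Pax7WT with 95% confidence intervals from edgeR for the 38 gene models of the wider NAD lists with at least 5 CPM on average, coloured by role. The intervals of Parg and Adprhl2 lie above 0, and every other interval drawn includes 0, with the widest for the 2 Nnt models.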

How the data were processed

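RNA was sequenced from sorted satellite cells with a strand-keeping kit as paired reads of 150 bases. The authors quantified them with salmon (version 1.3.0, per the labels) on GENCODE vM25 transcripts (GRCm38, genome decoys). The authors deposited unnormalized estimated counts of each transcript, with TPM values beside them. The authors' deposited table of their own comparison (log2 fold changes and p-values from tximport and DESeq2 version 1.28.1) was not used.

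Here transcripts were assigned to genes by identifier through GENCODE vM21 on the same build, which matched 139791 of 140992; the other 1201 held 0.592% to 0.634% of the reads of a library and were left out. Estimated counts were summed per gene and rounded. A gene needed at least 5 reads in at least 2 libraries, and edgeR (version 4.0.16; TMM, robust quasi-likelihood) was fitted with genotype as the only term. The p-values were adjusted by Benjamini-Hochberg over all 17152 genes, with the study's cut-off of 0.1. CPM use TMM library sizes. Precision depends on depth and on the spread between samples. The biological coefficient of variation, the part of that spread beyond counting error, was 13.75%. The p-values measure the spread between samples called biological replicates in the labels. Replicate numbers did not pair the libraries (correlations of same-numbered deviations -0.056 to 0.045), and no libraries were copies of each other. The scripts were tested on simulated data. The alternatives were DESeq2 (version 1.42.0), the average transcript length as offset, RLE factors, other filters, no rounding, a replicate block, a 0.05 threshold, and each library left out. Coding transcripts only, and leaving out libraries from DESeq2 with the offset, were added after seeing the data. R was version 4.3.3 and Python version 3.11.15.

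The members and lists were chosen with earlier results of these data known. Named beside the 10 members are the genes of the wider lists with an unadjusted p under 0.05, the 3 of each list with the highest mean TPM, markers used as checks, and the 3 genes most correlated with Nampt.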

Additional observations from a re-analysis of the deposited data

How the results depend on the processing

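Of the 3 counts of called genes, that over all genes depended on the method. It was 0 in edgeR, 30 in DESeq2, 45 in DESeq2 with the length offset, 157 without a filter on low counts, 13 with the replicate block, and 1 to 32 when libraries were left out in turn (32 without Pax7KR replicate 3). DESeq2 with the length offset on coding transcripts only called 48. Leaving out libraries from DESeq2 with the offset gave 40, 69 and 45 for Pax7WT replicates 1 to 3 and 42, 29 and 96 for Pax7KR replicates 1 to 3. The count of NAD members was 1 (Nmnat2) in DESeq2 with the offset and in that fit without Pax7KR replicate 1, and 0 in all other alternatives run. Of the wider lists, 1 gene (Nudt13, log2 fold change 0.78, adjusted p = 0.0359) was called by DESeq2 with the offset on coding transcripts only. The replicate block changed no call of a member.

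For Nmnat2, whose log2 fold change kept its sign in 22 of 22 alternatives, DESeq2 with the offset gave -1.19, and -1.60 without Pax7KR replicate 1. The length offset reversed the sign for Nampt (-0.14 in DESeq2 and in edgeR), Nmrk1 (-0.013 in both), Nmnat1 (-0.10 in both) and Naprt (0.051 and 0.052). Coding transcripts only reversed Nmrk1 (-0.018), and with DESeq2 and the offset Nmnat1 (-0.10) and Nadsyn1 (-0.069). Leaving out each library in turn gave, on the log2 scale, -0.0027 to 0.037 for Nampt, -0.096 to 0.023 for Nmnat3, -0.97 to 0.23 for Nnmt and -0.12 to 0.089 for Parp1, with the sign reversed at an end, and 0.079 to 0.28 for Nmnat1 and -0.23 to -0.11 for Naprt. The cause of these reversals was not tested. In DESeq2 with the offset, leaving out each library gave -0.22 to -0.090 for Nampt, -0.19 to 0.32 for Nmrk1, -0.22 to 0.053 for Nmnat1, -0.11 to -0.011 for Nmnat3, -0.0013 to 0.14 for Naprt, -0.031 to 0.24 for Nadsyn1, -0.032 to 0.094 for Nadk and -1.13 to 0.46 for Nnmt. For the 9 members other than Nmnat2 the smallest adjusted p in 22 alternatives was 0.736, for Parp1 in DESeq2 with the offset without Pax7WT replicate 3 (-0.30).

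Differences in transcript share (percentage points, Pax7KR minus Pax7WT) reversed for the most used transcripts of Nadsyn1 (-1.21) and Nnmt (0.12) as shares of reads. Leaving out libraries gave -9.57 to 7.98 for Nadk, -7.07 to 9.16 for Nadsyn1, -1.96 to 2.15 for Nmnat3, -3.27 to 12.0 for Nmrk1 and -13.8 to 12.9 for Nnmt, against differences of 1.77, 0.19, 0.71, 1.93 and -0.94 with all libraries. Depth limits the rarer members: Nnmt rests on 14 to 42 reads per library.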
